A study of Mus musculus with 14 samples.

Results

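Blastocysts cloned from cumulus cells by cell fusion were compared, gene by gene, with female blastocysts from in vitro fertilization (IVF). The comparison used 4 fusion clones and 3 female IVF-derived embryos, that is 7 of the 14 arrays, chosen by their labels alone. In cell fusion the donor cell is merged whole with an enucleated oocyte, whereas in nuclear injection (4 further arrays) only the nucleus is put in; male IVF-derived embryos made up the other 3 arrays. All embryos were labelled as E4.0 blastocysts, grown in KSOM, a simple mouse embryo medium. The fusion clones were labelled female with a cumulus cell as donor, the controls female and IVF. Cumulus cells, which enclose the oocyte in the follicle and leave the ovary with it, are somatic. The methods describe donors as Xist knockout heterozygotes on a BDF1 background, with a B6 mother carrying the deletion and a DBA/2 father, so that a donor's deletion lies on its maternal, B6 X. Recipient oocytes came from BDF1 females, and the IVF controls are described as BDF1 embryos. The labels of these embryos give no Xist genotype. Neither labels nor methods say whether a blastocyst array held 1 embryo or a pool, and p-values therefore measure only the spread between these arrays, which may be technical.

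The arrays were 1-colour Agilent whole mouse genome arrays, read as fluorescence intensity after amplification of total RNA in a pair of rounds. Each group lay on a slide of its own. Both clone groups were read on one scanner with one software version, and both IVF groups on another scanner with another version. In every value below, an effect of slide, scanner or software cannot be told apart from one of the group. Spots well above background made up 57.4% to 62.2% of the spots on the fusion clone arrays and 58.5% to 60.8% on the female IVF arrays. Pairs of arrays correlated at a mean r of 0.960 within the fusion clones (6 pairs), 0.940 within the female embryos (3 pairs) and 0.913 between the groups (12 pairs). Levels are given on the log2 scale after quantile normalization over the 14 arrays, with a floor of 4.0 (an intensity of 16), so that a value of 4.0 says only that the signal was at or under the floor. Where some arrays of a group lay at the floor or were not well above background, the difference given rests partly on values at or near background.

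Genes of the epiblast and trophectoderm lists were present on both sides. All 16 epiblast genes and 21 of 22 trophectoderm genes tested were well above background on all 7 arrays. Pou5f1, the pluripotency factor of the inner cell mass, had a mean level of 14.12 ± 0.25 (SD, n = 4) in the fusion clones and 14.54 ± 0.34 (SD, n = 3) in the female embryos. Cdx2, the trophectoderm factor, was at 15.63 ± 0.13 (SD, n = 4) in the fusion clones and 15.99 ± 0.28 (SD, n = 3) in the female embryos. The epiblast list had 1 gene called higher, Tbx3, and none lower (median log2 difference -0.01), and the trophectoderm list had 2 called lower, Elf5 and Bmp4, and none higher (-0.23). Primitive endoderm genes had a median of -1.37: 19 of 20 had a lower mean in the fusion clones, 3 of them passed the test (Foxa2, Sox7 and Cubn), and Foxa2 was at 4.0 on all 4 fusion arrays. Over all autosomal genes, 2.54% were called higher and 5.81% lower, with a median log2 difference of -0.21. No lineage list was tested against these shares. Fusion clone 4 was the lowest of the 4 in this list, with a median deviation of -3.32 from the female mean, against -1.41, -0.71 and -0.93 in fusion clones 1 to 3. In whole embryos, fewer cells of a type and less RNA per cell cannot be told apart. The part of the primitive endoderm list in the results below was not tested; without fusion clone 4, 893 probes were called higher and 942 lower.

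In nuclear transfer the oocyte has to return a somatic genome to an embryonic state. This involves removal of somatic DNA methylation and of repressive histone marks, among them methylation of lysine 9 of histone H3, and the restart of transcription of embryonic and germline genes. Enzymes that write and erase these marks are themselves transcribed in the blastocyst, and imprinted genes need maintenance factors such as Zfp57 and Trim28 through this stage. The description below covers autosomal genes and functional classes. Where a gene had several probes, the brightest stands for it.

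Of 32458 probes tested, 3085 (9.5%) were called at an adjusted p below 0.05 (limma with Benjamini-Hochberg adjustment), 1403 higher and 1682 lower in the fusion clones. The split depends on the scale: on the log2 values deposited by the authors, 1587 were higher and 951 lower. Over the 16169 autosomal genes tested, 411 (2.54%) were called higher and 939 (5.81%) lower, and the deposited values gave 391 and 515. The groups did not overlap in any of the called genes, but the share without overlap among all genes was not counted. The differences were often large: 355 of the 411 higher genes and 707 of the 939 lower ones differed at least 2-fold, and 77 and 89 at least 8-fold. The median fold was 3.07 among the higher genes and 2.39 among the lower. Both the split and the median also depend on taking the brightest probe. Over the other probes of named genes, 639 were called higher and 426 lower, with a median log2 difference of 0.02. Probes without a gene name had a median of -0.003. On the brightest probe, the median log2 difference of all autosomal genes was -0.21, and class medians below should be read against that value. With such a median most autosomal genes lay below 0, but their share was not counted. Counts of list members below 0 should be read with that in mind.

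**Figure D1:**
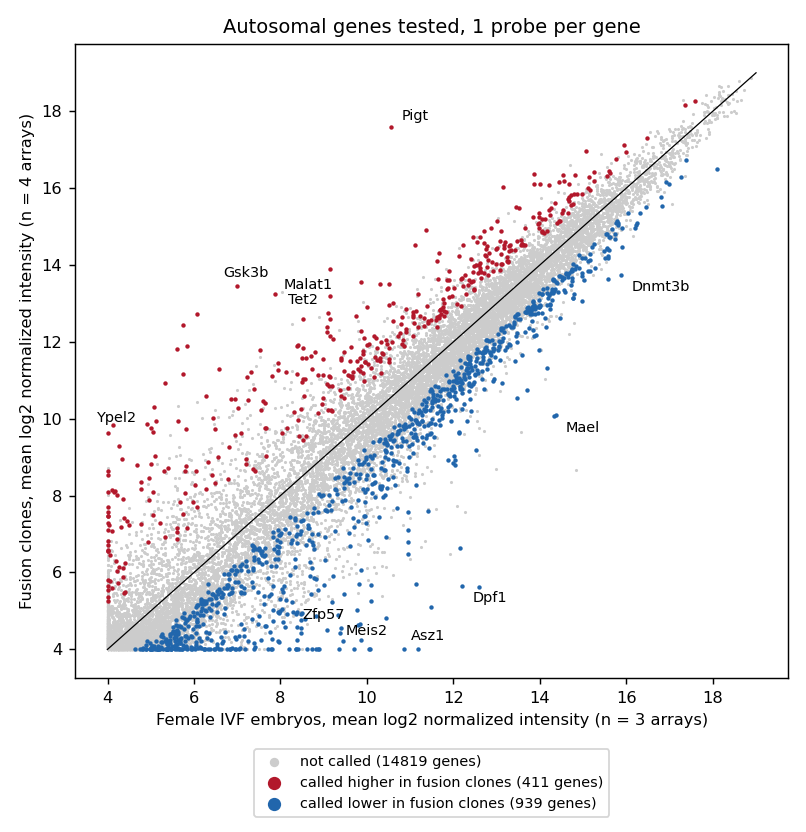
Mean log2 normalized intensity of each autosomal gene tested in the female IVF embryos (x axis, 3 arrays) and the fusion clones (y axis, 4 arrays), 1 probe per gene; the line marks equal levels and the lower edge at 4 is the floor. The 411 genes called higher (red) and the 939 called lower (blue) lie above and below the line respectively, with Pigt, Gsk3b and Ypel2 far above it and Dpf1, Asz1 and Meis2 far below.

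Of the autosomal genes well above background on all 7 arrays, 338 were called higher. Of those outside the lineage lists, 281 also differed at least 2-fold, with groups that did not overlap and no saturated spots. Pigt, a subunit of the transamidase that attaches GPI anchors to proteins, led them. Pigt was at 17.59, 17.71, 17.66 and 17.41 in fusion clones 1 to 4 and at 10.54, 11.60 and 9.51 in female embryos 1 to 3. The log2 difference was 7.04 ± 0.47 (SE, adjusted p = 0.00125), a fold of 132. The other Pigt probe read a log2 difference of -0.44 and was not called, so that the gene's probes disagree. Gsk3b, the kinase that marks beta-catenin for destruction in the Wnt pathway, followed. Gsk3b was at 13.70, 13.34, 13.40 and 13.38 in fusion clones 1 to 4 and at 4.0, 8.45 and 8.55 in female embryos 1 to 3. Female embryo 1 was at the floor, which sets part of the difference: it was 4.95 on the log2 scale without that array. The groups differed by a log2 of 6.45 ± 1.11 (SE, adjusted p = 0.0227), while its other probe, at 1.60, was not called. Malat1, a long non-coding RNA kept in nuclear speckles, was higher on 4 probes of 4, of which 3 passed. Malat1 was at 13.85, 13.01, 12.75 and 13.35 in fusion clones 1 to 4 and at 6.91, 9.88 and 6.83 in female embryos 1 to 3. On the log2 scale the difference was 5.36 ± 0.79 (SE, adjusted p = 0.0151). Hyal1, a lysosomal hyaluronidase, was higher on both its probes. Hyal1 was at 10.44, 9.45, 8.61 and 10.55 in fusion clones 1 to 4 and at 4.67, 5.08 and 5.26 in female embryos 1 to 3. Its log2 difference was 4.76 ± 0.51 (SE, adjusted p = 0.00618). Ddx6, the helicase of P-bodies that holds messages silent, was higher as well. Ddx6 was at 12.53, 12.44, 12.86 and 12.60 in fusion clones 1 to 4 and at 9.0, 7.89 and 8.71 in female embryos 1 to 3. The log2 difference was 4.08 ± 0.29 (SE, adjusted p = 0.00156). Rbm47, a splicing and RNA-editing cofactor, was at 13.74 to 14.12 in the fusion clones and 8.39 to 10.48 in the female embryos (log2 difference 4.74 ± 0.51 SE, adjusted p = 0.00646). The drug-acetylating enzymes Nat2 and Nat1, whose genes are close relatives in sequence so that a probe may read both, were at 12.21 to 13.76 in the fusion clones and 8.28 to 9.85 in the female embryos (log2 difference 4.04 ± 0.51 SE, adjusted p = 0.00993) and at 9.84 to 12.20 in the fusion clones and 6.33 to 8.57 in the female embryos (log2 difference 3.88 ± 0.72 SE, adjusted p = 0.0272). Kmt2e, a SET-domain protein of the Trithorax group, was at 11.65 to 11.93 in the fusion clones and 6.16 to 10.13 in the female embryos (log2 difference 4.27 ± 0.97 SE, adjusted p = 0.0441), and 1 of its other 2 probes was called too. Klra7, a natural killer cell receptor, completes the 10 largest and is taken up with its family. Another probe of the opposite sign was found for Kmt2e (-0.34). The calls of Pigt, Malat1, Hyal1, Rbm47, Ddx6 and Nat2 held with any 1 array left out. The other calls ended with 1 array left out, with adjusted p up to 0.0673 (Gsk3b) to 0.12 (Kmt2e). These arrays were any fusion clone for Gsk3b, fusion clone 1, 3 or 4 or female embryo 2 or 3 for Nat1, and any fusion clone or female embryo 1 or 3 for Kmt2e. The calls of Nat1 and Kmt2e also ended under at least 1 other setting of the processing.

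In the other direction 708 genes measured on all 7 arrays were called lower, of which 494 met the same conditions. Dpf1, a subunit of the neuronal form of the BAF chromatin remodeler, had the largest difference. Dpf1 was at 5.81, 5.76, 5.50 and 5.51 in fusion clones 1 to 4 and at 12.77, 12.13 and 11.70 in female embryos 1 to 3. The groups differed by a log2 of -6.56 ± 0.28 (SE, adjusted p = 0.000295), a fold of 94.1. Sohlh2, a helix-loop-helix factor of early germ cells, was also far outside the spread. Sohlh2 was at 6.75, 7.18, 8.56 and 7.96 in fusion clones 1 to 4 and at 11.35, 11.43 and 11.49 in female embryos 1 to 3. On the log2 scale the difference was -3.81 ± 0.44 (SE, adjusted p = 0.00769). Jam3, a junctional adhesion molecule, was at 5.76 to 7.60 in the fusion clones and 9.68 to 11.94 in the female embryos (log2 difference -4.48 ± 0.65 SE, adjusted p = 0.0149). Ghr, the growth hormone receptor, was at 6.03 to 8.02 in the fusion clones and 9.31 to 11.11 in the female embryos (log2 difference -3.53 ± 0.68 SE, adjusted p = 0.0301), and its other 4 probes were not called. Serping1, the C1 inhibitor of the complement cascade, was at 6.51 to 9.46 in the fusion clones and 9.995 to 11.74 in the female embryos (log2 difference -3.37 ± 0.80 SE, adjusted p = 0.0494), with fusion clone 2 close to the lowest female embryo. Pga5, a pepsinogen, was at 4.29 to 7.17 in the fusion clones and 8.40 to 10.62 in the female embryos (log2 difference -4.13 ± 0.83 SE, adjusted p = 0.0331). Teddm3, a transmembrane gene named for the epididymis, was at 5.37 to 8.73 in the fusion clones and 9.77 to 12.31 in the female embryos (log2 difference -4.16 ± 0.97 SE, adjusted p = 0.0468). Pacs1, a sorting adaptor of the trans-Golgi network, was at 5.92 to 6.31 in the fusion clones and 8.74 to 11.32 in the female embryos (log2 difference -3.78 ± 0.58 SE, adjusted p = 0.0169), while its other probe read a log2 difference of 0.02. Mael is described with the germline genes. Another probe of the opposite sign was found for Ghr (0.94). The calls of Dpf1 and Sohlh2 held with any 1 array left out. Without 1 array the other calls ended, with adjusted p up to 0.051 (Jam3) to 0.139 (Serping1). These arrays were female embryo 3 for Jam3, fusion clone 1, 2 or 4 or female embryo 1 or 3 for Ghr and Pga5, fusion clone 1, 3 or 4 or any female embryo for Serping1, fusion clone 1, 2 or 4 or any female embryo for Teddm3, and fusion clone 1, 2 or 3 for Pacs1. The calls of Ghr, Serping1, Pga5 and Teddm3 also ended under at least 1 other setting of the processing.

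**Figure D2:**
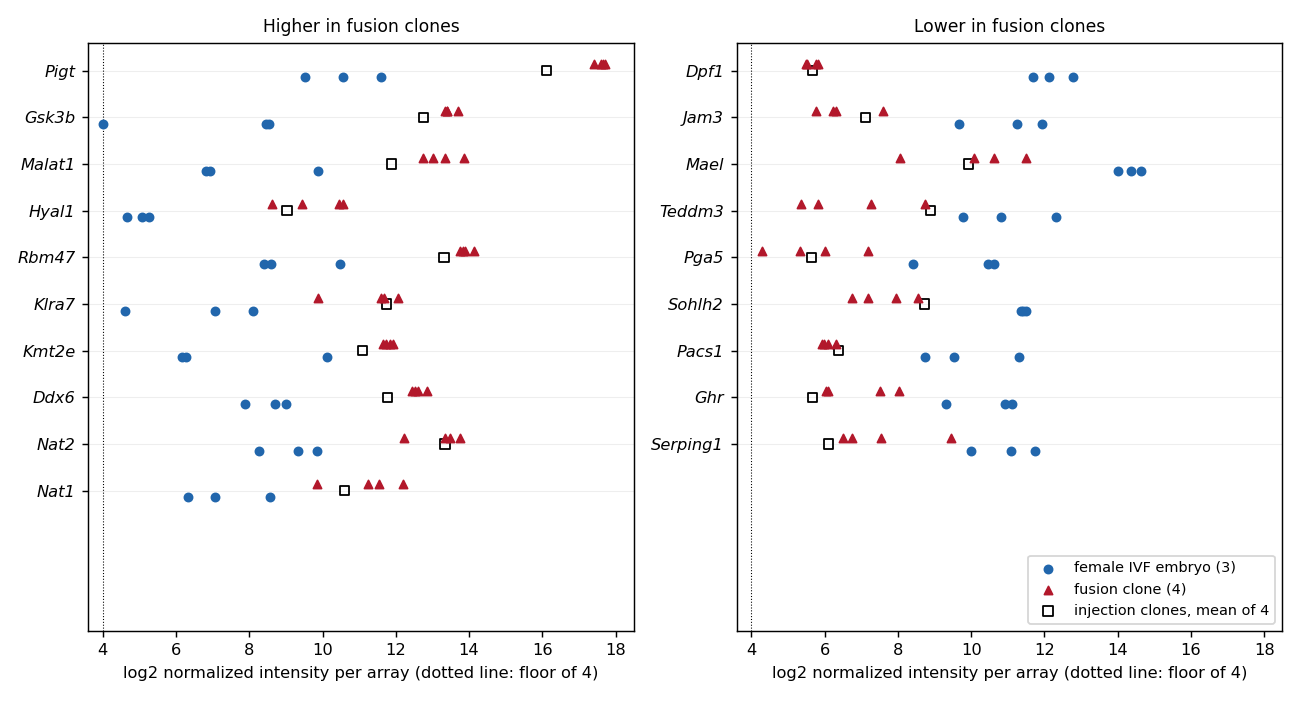
Level on each array (x axis, log2 normalized intensity) of the 10 genes with the largest rise and 9 of the 10 with the largest fall among those measured on all 7 arrays. Triangles are the 4 fusion clones, circles the 3 female IVF embryos and open squares the mean of the 4 injection clones. Triangles and circles do not overlap for any of these 19 genes because that was a condition for naming them. The 4 fusion clones lie close together for Pigt, Kmt2e and Dpf1 and far apart for Mael, Teddm3 and Serping1.

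A smaller set of called genes was well above background on every array of one group and on none of the other: 22 in the fusion clones and 87 in the female embryos. For these the fold is a lower bound set against the floor. Ypel2, a member of the yippee family of zinc-binding proteins, led them. Ypel2 was at 9.44, 9.56, 9.68 and 9.81 in fusion clones 1 to 4 and at 4.0, 4.0 and 4.0 in female embryos 1 to 3. It was at least 49.3-fold higher in the fusion clones (adjusted p = 8.27e-05). Mapk10, the neuronal kinase JNK3, read 7.94 to 9.05 in the fusion clones and 4.0 in each female embryo, at least 23.4-fold higher (adjusted p = 0.00101), while its other probe, at 0.63, was not called. Vps13d, a lipid-transfer protein, was at least 17-fold higher at 7.32 to 9.07 (adjusted p = 0.00536). Mmp9, the secreted protease gelatinase B, was at least 16.7-fold higher at 6.96 to 9.27 (adjusted p = 0.0101), with its other probe not called at a log2 difference of 0.29. In the other direction, Meis2, a homeobox cofactor of Hox and Pbx proteins, was at 4.0 in every fusion clone and at 10.90, 9.97 and 9.38 in the female embryos. It was at least 67.7-fold lower (adjusted p = 0.000809), and its other probe was called with nearly the same difference of -6.05. Nckap1l, the blood-cell subunit of the WAVE actin complex, was at least 65.6-fold lower than its 9.15 to 10.66 in the female embryos (adjusted p = 0.000891). Egflam, the matrix protein pikachurin, was at least 52-fold lower than 9.30 to 10.28 (adjusted p = 0.000318). Apbb1ip, the Rap1 effector RIAM, was at least 40.6-fold lower than 8.96 to 9.71 (adjusted p = 0.000216), while its other 2 probes were not called. None of the 8 calls in this paragraph, from Ypel2 to Apbb1ip, ended with any 1 array left out.

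**Figure D3:**
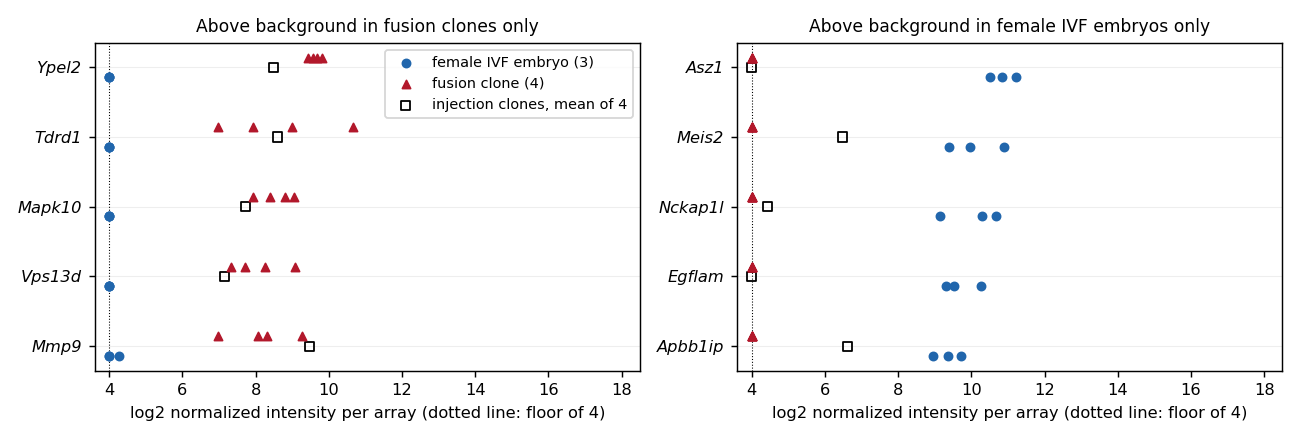
Level on each array (x axis, log2 normalized intensity) of genes above background in the 4 fusion clones and none of the 3 female IVF embryos (left) or the reverse (right), with the mean of the 4 injection clones as open squares. Points on the dotted line are at the floor of 4; the injection mean lies at or near the floor for Asz1, Egflam and Nckap1l and above it for Meis2 and Apbb1ip.

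Germline and piRNA pathway genes, which are kept methylated in somatic cells and come on in the germ line, held changes of both signs. Of 55 tested, 3 were called higher and 5 lower, with a median log2 difference of -0.61. Over all autosomal genes 2.54% were called higher and 5.81% lower. Asz1, an ankyrin-repeat protein needed for piRNA production and transposon silencing in germ cells, was not above background in any fusion clone. Asz1 was at 4.0, 4.0, 4.0 and 4.0 in fusion clones 1 to 4 and at 10.51, 11.22 and 10.83 in female embryos 1 to 3. It was at least 116-fold lower (adjusted p = 9.05e-05). Mael, another protein of the piRNA machinery, remained well above background. Mael was at 8.07, 10.08, 10.62 and 11.50 in fusion clones 1 to 4 and at 14.64, 14.002 and 14.37 in female embryos 1 to 3. Its log2 difference was -4.27 ± 0.78 (SE, adjusted p = 0.0263). Tdrd1, the Tudor-domain scaffold that binds Piwi proteins, went the other way. Tdrd1 was at 10.66, 7.93, 9.01 and 6.96 in fusion clones 1 to 4 and at 4.0, 4.0 and 4.0 in female embryos 1 to 3. It was at least 24.9-fold higher (adjusted p = 0.0252). Brdt, the testis bromodomain protein, was at 6.15 to 8.37 in the fusion clones and 4.0 to 4.18 in the female embryos (log2 difference 2.99 ± 0.50 SE, adjusted p = 0.0216), where the female embryos lay at or just over the floor. Dpep3, a testis dipeptidase, was at 8.13 to 9.54 in the fusion clones and 4.28 to 6.65 in the female embryos (log2 difference 2.98 ± 0.65 SE, adjusted p = 0.04), with 2 of 3 female arrays well above background. Spo11, the nuclease that starts meiotic recombination, and Tuba3a, a testis alpha-tubulin, were lower, with log2 differences of -1.25 and -1.12 (adjusted p = 0.0361 and 0.0314). Neither the Piwi gene Piwil2 nor the germ cell helicase gene Ddx4 passed the test: Piwil2 was at 12.46 ± 0.63 (SD, n = 4) in the fusion clones and 12.34 ± 0.70 (SD, n = 3) in the female embryos, and Ddx4 was at 8.59 ± 1.23 (SD, n = 4) in the fusion clones and 8.88 ± 1.20 (SD, n = 3) in the female embryos. The call of Asz1 held with any 1 array left out. Leaving out 1 array ended those of Mael, Tdrd1, Brdt and Dpep3, with adjusted p up to 0.0651 (Brdt) to 0.0991 (Dpep3). These arrays were fusion clone 2 or 3 or any female embryo for Mael and Tdrd1, fusion clone 1 or 4 or any female embryo for Brdt, and any fusion clone or female embryo 1 or 2 for Dpep3. Spo11 and Tuba3a were not examined with an array left out. The calls of Mael, Tdrd1, Brdt and Dpep3 also ended under at least 1 other setting of the processing.

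The promoters of 4 of these genes are shown because the genes share a pathway or tissue and differ in opposite directions. Each runs from 250 bases before to 50 bases after the most upstream RefSeq start (build GRCm38.p6), 5′ to 3′ on the strand of the gene, with each CpG, the site of DNA methylation, in capitals. The first pair was lower and the second pair higher in the fusion clones. Asz1 is at chr6:18109012-18109311 on the minus strand, Mael at chr1:166238695-166238994 on the minus strand, Tdrd1 at chr19:56825959-56826258 on the plus strand and Brdt at chr5:107330944-107331243 on the plus strand.
Asz1: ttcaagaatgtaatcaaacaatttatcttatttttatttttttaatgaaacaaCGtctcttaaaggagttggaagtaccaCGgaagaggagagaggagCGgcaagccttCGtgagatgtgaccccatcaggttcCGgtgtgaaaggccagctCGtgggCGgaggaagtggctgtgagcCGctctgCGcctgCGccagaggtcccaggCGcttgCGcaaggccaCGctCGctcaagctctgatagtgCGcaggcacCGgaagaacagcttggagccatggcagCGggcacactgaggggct
Mael: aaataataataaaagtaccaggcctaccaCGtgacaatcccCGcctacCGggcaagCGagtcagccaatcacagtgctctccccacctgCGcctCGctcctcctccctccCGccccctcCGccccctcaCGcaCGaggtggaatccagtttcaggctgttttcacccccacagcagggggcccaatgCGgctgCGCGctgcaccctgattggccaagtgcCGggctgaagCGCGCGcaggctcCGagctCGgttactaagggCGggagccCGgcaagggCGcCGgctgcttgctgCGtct
Tdrd1: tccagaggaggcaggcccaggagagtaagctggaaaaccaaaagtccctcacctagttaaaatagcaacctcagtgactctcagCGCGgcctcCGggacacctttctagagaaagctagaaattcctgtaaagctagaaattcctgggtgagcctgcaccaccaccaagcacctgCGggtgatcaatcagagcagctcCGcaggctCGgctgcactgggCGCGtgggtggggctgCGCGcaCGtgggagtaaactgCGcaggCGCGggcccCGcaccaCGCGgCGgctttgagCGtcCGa
Brdt: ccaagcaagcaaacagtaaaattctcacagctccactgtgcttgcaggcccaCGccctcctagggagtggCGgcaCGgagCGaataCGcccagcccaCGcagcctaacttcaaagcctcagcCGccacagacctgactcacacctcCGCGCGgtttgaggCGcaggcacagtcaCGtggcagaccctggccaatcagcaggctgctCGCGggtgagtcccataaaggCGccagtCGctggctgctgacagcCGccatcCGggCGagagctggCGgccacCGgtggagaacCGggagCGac
The Asz1 window held 17 CpGs, that of Mael 24, that of Tdrd1 20 and that of Brdt 23, so the counts of the lower and the higher pair overlap. The palindrome CACGTG, one form of the E-box, was found in the windows of Mael, Tdrd1 and Brdt and not in that of Asz1. The windows of Sohlh2 (lower, 17 CpGs) and Dpep3 (higher, 12 CpGs), read but not printed, did not hold it. Among autosomal genes well above background on all 7 arrays with a RefSeq promoter, it was present in 6.59% of the 273 called higher, 11.6% of the 577 called lower and 10.52% of the 8050 not called. The median number of CpGs per window was 22, 19 and 21 in these 3 sets. These are matches of letters, not sites shown to be bound or methylated.

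Writers and erasers of DNA methylation held calls in both directions, 2 of 25 higher and 3 lower (median log2 difference -0.46). For all autosomal genes the shares were 2.54% higher and 5.81% lower, and the difference in shares was not tested. Tet2, which oxidizes 5-methylcytosine, was higher. Tet2 was at 12.43, 12.90, 13.04 and 12.66 in fusion clones 1 to 4 and at 9.76, 9.5 and 8.0 in female embryos 1 to 3. The log2 difference was 3.67 ± 0.45 (SE, adjusted p = 0.0091), while its other probe differed by 0.75 and was not called. Dnmt3b, the de novo methyltransferase prominent in the blastocyst, was lower. Dnmt3b was at 13.05, 14.14, 13.76 and 13.98 in fusion clones 1 to 4 and at 16.05, 15.84 and 15.74 in female embryos 1 to 3. The groups differed by a log2 of -2.14 ± 0.29 (SE, adjusted p = 0.0122). Zfp57, the zinc finger protein that protects methylation at imprinted regions, was lower as well. Zfp57 was at 4.68, 4.92, 5.90 and 5.38 in fusion clones 1 to 4 and at 7.91, 8.03 and 8.85 in female embryos 1 to 3. On the log2 scale the difference was -3.04 ± 0.38 (SE, adjusted p = 0.00966). Its partner Trim28 was at 15.01 ± 0.41 (SD, n = 4) in the fusion clones and 15.98 ± 0.14 (SD, n = 3) in the female embryos and was not called (adjusted p = 0.0659). Dnmt1, the maintenance methyltransferase, was at 10.16 to 11.11 in the fusion clones and 11.83 to 12.51 in the female embryos (log2 difference -1.40 ± 0.30 SE, adjusted p = 0.039). Dnmt3a was at 12.58 to 13.64 in the fusion clones and 9.92 to 11.39 in the female embryos (log2 difference 2.42 ± 0.44 SE, adjusted p = 0.0255), but its other 2 probes read -0.93 and -0.15, so the direction of Dnmt3a rests on 1 probe. The calls of Tet2, Dnmt3b and Zfp57 held with any 1 array left out. The other calls ended with 1 array left out, with adjusted p up to 0.0726 (Dnmt3a) to 0.0921 (Dnmt1). These arrays were any fusion clone or any female embryo for Dnmt1, and any fusion clone or female embryo 2 or 3 for Dnmt3a. The call of Dnmt1 also ended under at least 1 other setting of the processing.

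Histone modifiers and remodelers also held calls of both signs. Their counts stand beside 2.54% called higher and 5.81% called lower over all autosomal genes, and no difference in shares was tested. Of 25 genes of histone H3K9 methylation, 2 were called higher and 3 lower (median -0.37). Setdb1, the H3K9 methyltransferase that works with Trim28 on retroelements, was at 9.54 to 10.44 in the fusion clones and 11.82 to 12.16 in the female embryos (log2 difference -2.0 ± 0.26 SE, adjusted p = 0.0104). Cbx5 and Cbx1, the heterochromatin proteins HP1 alpha and HP1 beta, were called in opposite directions, with log2 differences of -0.73 and 0.96. The demethylase Kdm7a was higher, at 12.59 to 13.34 in the fusion clones and 8.60 to 11.50 in the female embryos (log2 difference 2.90 ± 0.66 SE, adjusted p = 0.0437), and Kdm3b, which removes H3K9 methylation, lower (log2 difference -0.82). Among 53 Polycomb and Trithorax genes, 6 were higher and 2 lower (median -0.25). Ash1l, a Trithorax methyltransferase of H3K36, was at 11.44 to 12.04 in the fusion clones and 8.65 to 9.0 in the female embryos (log2 difference 2.93 ± 0.23 SE, adjusted p = 0.00208). Kdm5a, the H3K4 demethylase, was at 11.11 to 12.11 in the fusion clones and 8.05 to 9.10 in the female embryos (log2 difference 3.0 ± 0.36 SE, adjusted p = 0.00868), while its other 3 probes read 3.63, -0.42 and 0.40 and were not called. Cbx7, the chromodomain subunit of Polycomb complex PRC1, was lower at 9.97 to 11.73 in the fusion clones and 12.69 to 13.64 in the female embryos (log2 difference -2.20 ± 0.45 SE, adjusted p = 0.0353), as was the PRC2 cofactor Phf19 (log2 difference -1.30). Of 49 histone deacetylases and acetyltransferases, none was higher and 4 were lower (median -0.20). Hdac1 was at 14.20 to 14.63 in the fusion clones and 15.35 to 15.55 in the female embryos (log2 difference -1.12 ± 0.17 SE, adjusted p = 0.0165), and Kat2b (PCAF) was at 7.30 to 9.01 in the fusion clones and 9.46 to 10.94 in the female embryos (log2 difference -2.23 ± 0.51 SE, adjusted p = 0.0461). Of 52 chromatin remodelers, 3 were higher and 6 lower (median -0.19). Smarcc1, a core BAF subunit, was at 13.37 to 13.75 in the fusion clones and 9.56 to 11.60 in the female embryos (log2 difference 3.22 ± 0.51 SE, adjusted p = 0.018), whereas Actl6a, its actin-like partner, was at 11.72 to 12.34 in the fusion clones and 13.44 to 13.51 in the female embryos (log2 difference -1.47 ± 0.20 SE, adjusted p = 0.0116) with an uncalled second probe of the other sign at a log2 difference of 3.6. Other probes of the opposite sign were found for Cbx5 (0.40), Cbx1 (-0.10) and Kat2b (0.80). The calls of Setdb1, Ash1l, Kdm5a, Hdac1 and Actl6a held with any 1 array left out. Without 1 array the other calls ended, with adjusted p up to 0.0556 (Smarcc1) to 0.116 (Kdm7a). These arrays were any fusion clone or female embryo 1 or 3 for Kdm7a and Cbx1, fusion clone 1, 3 or 4 or any female embryo for Cbx5 and Kat2b, any fusion clone or female embryo 1 or 2 for Kdm3b, fusion clone 1, 2 or 4 or any female embryo for Cbx7, fusion clone 2, 3 or 4 or any female embryo for Phf19, and any fusion clone or female embryo 3 for Smarcc1. The calls of Kdm7a, Cbx5, Cbx1, Kdm3b, Cbx7, Phf19 and Kat2b also ended under at least 1 other setting of the processing.

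**Figure D4:**
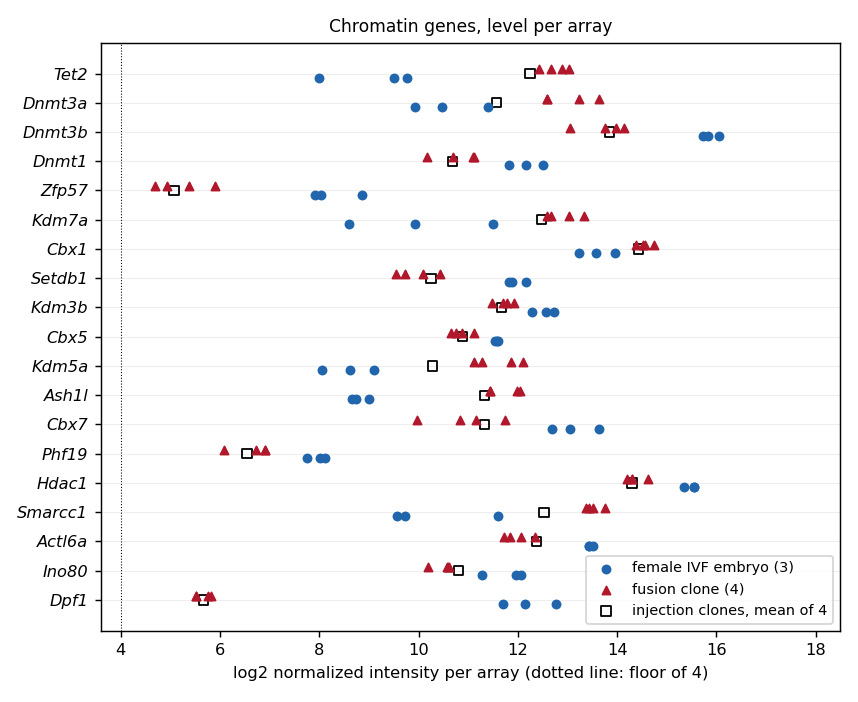
Level on each array (x axis, log2 normalized intensity) of called genes of DNA methylation, H3K9 methylation, Polycomb and Trithorax, deacetylation and remodeling. Triangles are the 4 fusion clones, circles the 3 female IVF embryos and open squares the mean of the 4 injection clones; Tet2, Dnmt3a, Kdm7a, Cbx1, Kdm5a, Ash1l and Smarcc1 lie higher in the fusion clones and the other 12 genes lower.

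Over 7 lists of protein synthesis and RNA processing, 8 of 351 genes were called higher (2.28%) and 24 lower (6.84%), near the 2.54% and 5.81% of all autosomal genes. Of 74 cytosolic ribosomal proteins, none was called higher and 3 lower (median log2 difference -0.12), and Rps15a fell by 0.87 on the log2 scale (adjusted p = 0.0346). Of 75 mitochondrial ribosomal proteins, 4 were higher and 1 lower (median -0.03), led by Mrps23 (log2 difference 0.91) and Mrpl30 (log2 difference -0.81). Translation factors split 3 higher to 2 lower of 44 (median -0.21): the initiation factor subunit Eif3i was at 10.02 to 10.19 in the fusion clones and 11.07 to 11.42 in the female embryos (log2 difference -1.18 ± 0.16 SE, adjusted p = 0.0121), and Eif5b, the subunit-joining factor, was higher (log2 difference 2.51) on a probe with which 2 of its other 4 disagree in sign. Aminoacyl-tRNA synthetases charge tRNAs with amino acids. None of 22 was higher and 5 were lower, and 17 of 22 had a difference below 0 (median -0.48). Vars, the valyl-tRNA synthetase, was lower on both its probes. Vars was at 9.06, 9.03, 9.45 and 9.59 in fusion clones 1 to 4 and at 10.91, 11.21 and 10.83 in female embryos 1 to 3. Its log2 difference was -1.70 ± 0.21 (SE, adjusted p = 0.00992). Iars and Gars, for isoleucine and glycine, were lower, with log2 differences of -1.34 and -0.91. Ribosome biogenesis had 5 of 49 lower and none higher (median -0.30), among them Gnl2, a nucleolar GTPase, at 13.40 to 13.54 in the fusion clones and 14.54 to 15.06 in the female embryos (log2 difference -1.25 ± 0.18 SE, adjusted p = 0.0151), and the rRNA methyltransferase Nop2 (log2 difference -0.92). Of 59 spliceosome components 1 was higher and 5 lower (median -0.22). Prpf19 was at 9.5 to 10.23 in the fusion clones and 11.04 to 12.37 in the female embryos (log2 difference -1.85 ± 0.35 SE, adjusted p = 0.0283), and the Sm-like protein Lsm6 was higher (log2 difference 0.91). Of 28 nuclear pore genes 3 were lower (median -0.35), with Nup160 (log2 difference -1.04) and Nup133 (log2 difference -0.89). Another probe of the opposite sign was found for Lsm6 (-0.23 and -0.24). The calls of Eif3i, Vars, Gnl2 and Nop2 held with any 1 array left out. Leaving out 1 array ended the other calls, with adjusted p up to 0.0532 (Nup160) to 0.104 (Eif5b). These arrays were any fusion clone or female embryo 1 or 2 for Rps15a and Mrpl30, fusion clone 1, 2 or 3 or female embryo 2 or 3 for Mrps23, any fusion clone or female embryo 1 or 3 for Eif5b and Iars, any fusion clone or female embryo 3 for Gars, fusion clone 1, 2 or 3 or female embryo 3 for Prpf19, fusion clone 1, 2 or 3 or any female embryo for Lsm6, fusion clone 2 or 3 for Nup160, and fusion clone 1, 2 or 3 for Nup133. The calls of Rps15a, Mrps23, Mrpl30, Eif5b, Gars, Lsm6 and Nup133 also ended under at least 1 other setting of the processing.

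Over 4 lists of cell division, 6 of 253 genes were called higher (2.37%) and 20 lower (7.91%), beside 2.54% and 5.81% of all autosomal genes. DNA replication had 2 of 58 higher and 6 lower, with 49 of 58 differences below 0 and a median of -0.42. Mcm2, a subunit of the replicative helicase, was lower in every clone. Mcm2 was at 13.91, 14.26, 14.18 and 14.04 in fusion clones 1 to 4 and at 15.08, 15.23 and 15.03 in female embryos 1 to 3. The log2 difference was -1.01 ± 0.16 (SE, adjusted p = 0.0182). Mcm3, of the same helicase, was lower (log2 difference -1.18), and Pold3, a polymerase delta subunit, higher (log2 difference 1.06). Mitosis and kinetochore genes had 2 of 80 higher and 9 lower (median -0.34). Aurkc, the Aurora kinase of germ cells and early embryos, was at 7.47 to 8.69 in the fusion clones and 9.84 to 9.96 in the female embryos (log2 difference -1.73 ± 0.33 SE, adjusted p = 0.0298). Cdc25a, the phosphatase that activates Cdk2, was higher on both its probes, at 11.51 to 12.23 in the fusion clones and 8.91 to 10.05 in the female embryos (log2 difference 2.25 ± 0.34 SE, adjusted p = 0.016). Smc2, a condensin subunit, was called higher (log2 difference 2.25) on its brightest probe, but its other 3 probes read -1.44, 3.50 and -1.30, with calls in both directions. Among 36 G1 regulators, 1 was higher and 3 lower (median -0.49). E2f1 was higher at 12.64 to 13.27 in the fusion clones and 11.60 to 11.93 in the female embryos (log2 difference 1.21 ± 0.21 SE, adjusted p = 0.0222), while E2f5, a repressor of the same family, was lower (log2 difference -1.71) and the pocket protein Rbl1 (p107) lower at 11.13 to 11.49 in the fusion clones and 12.29 to 12.81 in the female embryos (log2 difference -1.27 ± 0.20 SE, adjusted p = 0.0169). DNA repair had 1 of 79 higher, the checkpoint kinase Chek2 (log2 difference 1.78), and 2 lower, among them the ligase Lig4 (log2 difference -1.21) (median -0.34). Of 68 p53 targets and apoptosis regulators 2 were higher and 3 lower (median 0.03). The death receptor adaptor Tradd was at 14.33 to 14.77 in the fusion clones and 12.87 to 13.50 in the female embryos (log2 difference 1.40 ± 0.21 SE, adjusted p = 0.0164). Bak1, a pore-forming death effector, was higher (log2 difference 1.64) on its brightest probe and differed by -0.67 on its other, both called. Bcl2l11 (BIM) was lower (log2 difference -1.16), while its other 2 probes read 2.88 and 1.06 and were not called, and Bcl2 was lower near the floor (log2 difference -1.45, 2 of 4 fusion arrays at it). Other probes of the opposite sign were found for E2f5 (0.92) and Lig4 (1.69). The calls of Mcm2, Cdc25a, Rbl1, Tradd and Bcl2l11 held with any 1 array left out. The other calls ended with 1 array left out, with adjusted p up to 0.0559 (E2f1) to 0.107 (Chek2). These arrays were fusion clone 2, 3 or 4 or any female embryo for Mcm3 and E2f5, any fusion clone or any female embryo for Pold3, fusion clone 1 or any female embryo for Aurkc, fusion clone 2, 3 or 4 or female embryo 2 or 3 for Smc2, fusion clone 1 or 2 for E2f1, any fusion clone or female embryo 2 or 3 for Chek2 and Lig4, fusion clone 1, 2 or 4 or female embryo 3 for Bak1, and fusion clone 1, 2 or 4 or female embryo 1 or 3 for Bcl2. The calls of Mcm3, Pold3, Smc2, E2f5, Chek2, Lig4 and Bcl2 also ended under at least 1 other setting of the processing.

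Of 110 lysosome and redox genes, 9 were called higher (8.18%) and 1 lower (0.909%), beside 2.54% and 5.81% of all autosomal genes. The difference in shares was not tested, and the lists were chosen with earlier results known. The autophagy, proteasome, chaperone and endoplasmic reticulum lists below are not part of the 110. Of 55 lysosome and V-ATPase genes 4 were called higher and none lower (median 0.18). Cd68, a lysosomal membrane glycoprotein, rose the most among them. Cd68 was at 11.80, 11.99, 10.74 and 11.23 in fusion clones 1 to 4 and at 8.94, 8.06 and 6.84 in female embryos 1 to 3. The groups differed by a log2 of 3.49 ± 0.55 (SE, adjusted p = 0.018). Gusb, the beta-glucuronidase, was at 14.22 to 14.81 in the fusion clones and 13.04 to 13.71 in the female embryos (log2 difference 1.22 ± 0.24 SE, adjusted p = 0.031), and Atp6v1a, the catalytic subunit of the proton pump, was higher (log2 difference 1.13), with its other probe called at a log2 difference of 2.40. Of 55 glutathione and antioxidant genes 5 were higher and 1 lower (median 0.10). Mgst2, a microsomal glutathione transferase, was at 13.29 to 13.99 in the fusion clones and 8.74 to 11.15 in the female embryos (log2 difference 3.70 ± 0.56 SE, adjusted p = 0.0162). Glrx2, the mitochondrial glutaredoxin, was at 12.60 to 13.14 in the fusion clones and 11.06 to 11.17 in the female embryos (log2 difference 1.67 ± 0.18 SE, adjusted p = 0.00661), with an uncalled second probe of the other sign at a log2 difference of -0.91. Gstp1 was lower (log2 difference -0.97). Autophagy genes split 2 higher to 1 lower of 37 (median 0.05), with the LC3 gene Map1lc3a (log2 difference 1.62) and the kinase Tbk1 (log2 difference -0.97). Proteasome subunits had 1 of 43 lower, Psmd9 (log2 difference -1.85), and a median of 0.02. Chaperones had 2 of 42 higher and none lower (median 0.04), led by the Hsp90 cochaperone Ptges3 (log2 difference 1.15), with its other probe called at a log2 difference of 5.29. Genes of endoplasmic reticulum and amino acid stress had 2 of 50 higher and 2 lower (median -0.29). Hsp90b1, the Hsp90 of the endoplasmic reticulum, was within 16.27 to 16.29 on the 4 fusion arrays and at 17.11 to 17.47 in the female embryos (log2 difference -0.99 ± 0.15 SE, adjusted p = 0.0171). Xbp1, the factor of the unfolded protein response, was lower (log2 difference -1.47), and the chaperone Hyou1 higher (log2 difference 1.33). Other probes of the opposite sign were found for Psmd9 (0.42) and Hsp90b1 (0.12). The calls of Glrx2, Ptges3 and Hsp90b1 held with any 1 array left out. Without 1 array the other calls ended, with adjusted p up to 0.053 (Mgst2) to 0.0746 (Gusb). These arrays were fusion clone 1 or 2 for Cd68, any fusion clone or female embryo 2 or 3 for Gusb and Hyou1, any fusion clone or female embryo 3 for Atp6v1a, Psmd9 and Xbp1, fusion clone 1 or female embryo 3 for Mgst2, fusion clone 1 or 3 for Gstp1, fusion clone 1 or 2 or female embryo 2 or 3 for Map1lc3a, and fusion clone 2 or 4 for Tbk1. The calls of Gusb and Tbk1 also ended under at least 1 other setting of the processing.

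Of 243 genes of energy, lipids and solute transport, 6 were called higher (2.47%) and 11 lower (4.53%), near the 2.54% and 5.81% of all autosomal genes. Oxidative phosphorylation had 1 of 75 higher and 3 lower (median log2 difference -0.18), with the complex III subunits Uqcrb and Uqcrh called in opposite directions, with log2 differences of 0.83 and -0.94. The complex I subunit Ndufb4 was at 13.60 to 13.81 in the fusion clones and 14.61 to 14.72 in the female embryos (log2 difference -0.91 ± 0.15 SE, adjusted p = 0.0188). Glycolysis had 1 of 29 higher, the enolase Eno2 at 11.10 to 11.73 in the fusion clones and 9.36 to 9.90 in the female embryos (log2 difference 1.89 ± 0.23 SE, adjusted p = 0.00909), and a median of -0.23. The tricarboxylic acid cycle had 1 of 19 higher, Sucla2 (log2 difference 0.82) (median -0.24). Of 34 cholesterol genes 1 was higher and 2 lower (median 0.03). Npc1, which moves cholesterol out of lysosomes, was at 13.49 to 13.70 in the fusion clones and 12.19 to 12.61 in the female embryos (log2 difference 1.24 ± 0.17 SE, adjusted p = 0.0121), and the exporter Abcg1 was lower at 7.44 to 9.12 in the fusion clones and 10.08 to 10.99 in the female embryos (log2 difference -2.36 ± 0.45 SE, adjusted p = 0.0288). Of 49 fatty acid genes 1 was higher and 3 lower (median -0.30): the binding protein Fabp5 was at 11.38 to 11.82 in the fusion clones and 8.89 to 9.95 in the female embryos (log2 difference 2.17 ± 0.28 SE, adjusted p = 0.0105), and the ligase Acsl1 was lower (log2 difference -2.19). Fasn, the fatty acid synthase, was lower (log2 difference -1.31) on 3 fusion arrays, its spot on the second being an outlier left out. Solute carriers for amino acids and nucleosides had 1 of 37 higher and 3 lower (median -0.49). Slc43a3, a purine transporter, was higher. Slc43a3 was at 15.91, 15.94, 15.94 and 16.33 in fusion clones 1 to 4 and at 13.14, 13.68 and 12.59 in female embryos 1 to 3. On the log2 scale the difference was 2.89 ± 0.29 (SE, adjusted p = 0.00496). The nucleoside transporter Slc29a2 was lower, at 6.19 to 7.45 in the fusion clones and 9.17 to 9.88 in the female embryos (log2 difference -2.54 ± 0.37 SE, adjusted p = 0.015), and so was Slc28a3 (log2 difference -1.32). Another probe of the opposite sign was found for Slc28a3 (0.35). The calls of Ndufb4, Eno2, Npc1, Fabp5, Slc43a3 and Slc29a2 held with any 1 array left out. Leaving out 1 array ended the other calls, with adjusted p up to 0.0535 (Slc28a3) to 0.0915 (Acsl1). These arrays were any fusion clone or female embryo 1 or 2 for Uqcrb, fusion clone 1, 3 or 4 or female embryo 1 or 2 for Uqcrh, fusion clone 2, 3 or 4 or female embryo 1 or 3 for Sucla2, fusion clone 1, 3 or 4 or female embryo 1 or 3 for Abcg1, any fusion clone or female embryo 1 or 3 for Acsl1, fusion clone 1 or 4 or any female embryo for Fasn, and fusion clone 1 for Slc28a3. The calls of Uqcrb, Uqcrh, Eno2, Sucla2, Abcg1, Acsl1 and Fasn also ended under at least 1 other setting of the processing.

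Signalling, adhesion and cytoskeleton genes were called in both directions. Among all autosomal genes 2.54% were called higher and 5.81% lower, and no list was tested against these shares. Wnt pathway genes had 1 of 53 higher, Gsk3b as above, and 3 lower (median -0.53). Fzd8, a Wnt receptor, was at 4.0 in every fusion clone and at 6.45, 6.56 and 7.29 in the female embryos, at least 6.82-fold lower (adjusted p = 0.00286). Of 55 TGF-beta and BMP genes 2 were higher and 4 lower (median -0.08). Bmpr2, the type II BMP receptor, was at 14.29 to 14.93 in the fusion clones and 13.28 to 13.69 in the female embryos (log2 difference 1.15 ± 0.21 SE, adjusted p = 0.0264). Its ligand Bmp4 was at 5.95 to 8.80 in the fusion clones and 9.78 to 10.20 in the female embryos (log2 difference -3.16 ± 0.70 SE, adjusted p = 0.0417) and the Nodal coreceptor Cfc1 lower (log2 difference -1.86). FGF, EGF and ERK signalling had 1 of 64 higher and 2 lower (median -0.52). The kinase Mapk3 (ERK1) was lower at 7.03 to 7.90 in the fusion clones and 8.93 to 9.26 in the female embryos (log2 difference -1.49 ± 0.26 SE, adjusted p = 0.0235), and the ligand Pdgfa was higher at 16.65 to 17.26 in the fusion clones and 14.31 to 16.07 in the female embryos (log2 difference 1.91 ± 0.43 SE, adjusted p = 0.0422). Of 61 integrin and matrix genes 1 was higher, Mmp9, and 2 lower (median -0.25); the collagen Col6a3 was at 4.0 in every fusion clone and at 7.30 to 10.69 in the female embryos, at least 29.9-fold lower (adjusted p = 0.016). Of 52 junction genes 4 were lower and none higher (median -0.12). Gjc1, the gap junction protein connexin 45, was at 4.0, 4.0, 6.57 and 4.0 in the fusion clones and at 9.01 to 10.27 in the female embryos (log2 difference -5.14 ± 0.74 SE, adjusted p = 0.0142), with 1 of the 4 fusion arrays well above background, and its other probe was called at a log2 difference of -4.30. Actin cytoskeleton genes had 3 of 64 higher and 1 lower (median -0.03). Myh9, the heavy chain of non-muscle myosin II, was higher. Myh9 was at 16.36, 16.28, 16.24 and 16.49 in fusion clones 1 to 4 and at 14.43, 14.81 and 14.35 in female embryos 1 to 3. Its log2 difference was 1.81 ± 0.18 (SE, adjusted p = 0.00487). Pdlim1 was lower (log2 difference -0.77). Interferon response genes had 2 of 56 lower and none higher (median -0.21), among them Ifitm3, a block to viral entry, at 4.0 to 5.51 in the fusion clones and 7.35 to 9.0 in the female embryos (log2 difference -3.44 ± 0.52 SE, adjusted p = 0.016), with 1 fusion array at the floor. MHC and antigen presentation had 1 of 33 higher and 2 lower (median -0.24), H2-DMb1 at least 8.62-fold higher and H2-Ab1 lower (log2 difference -2.99, 1 fusion array at the floor). Other probes of the opposite sign were found for Fzd8 (0.11) and H2-Ab1 (0.50). The calls of Fzd8, Gjc1, Myh9 and H2-Ab1 held with any 1 array left out. The other calls ended with 1 array left out, with adjusted p up to 0.0501 (Ifitm3) to 0.115 (Pdgfa). These arrays were fusion clone 2 or 3 or female embryo 1 for Bmpr2, fusion clone 1, 2 or 4 or any female embryo for Bmp4, fusion clone 2, 3 or 4 or female embryo 2 or 3 for Cfc1, fusion clone 3 or any female embryo for Mapk3, any fusion clone or female embryo 1 or 3 for Pdgfa, fusion clone 1, 2 or 3 for Col6a3, fusion clone 1, 2 or 3 or female embryo 2 or 3 for Pdlim1, fusion clone 2 for Ifitm3, and fusion clone 2 or 3 or any female embryo for H2-DMb1. The calls of Bmp4, Pdgfa, Pdlim1, H2-DMb1 and H2-Ab1 also ended under at least 1 other setting of the processing.

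Several large gene families are read through probes that near-identical copies may share, and their values are uncertain in that sense. Family counts stand beside 2.54% of all autosomal genes called higher and 5.81% called lower. Of 16 Klra (Ly49) and C-type lectin-like genes, 5 were called higher and none lower. Klra7 was at 12.06, 11.67, 11.59 and 9.88 in fusion clones 1 to 4 and at 8.10, 4.60 and 7.06 in female embryos 1 to 3. The log2 difference was 4.72 ± 0.92 (SE, adjusted p = 0.031). Klra1 and Klra16 were at 7.99 to 11.08 and 8.39 to 10.86 in the fusion clones and at 4.0 to 6.64 and 4.03 to 6.80 in the female embryos, with log2 differences of 4.96 and 4.31 and 2 of 3 female arrays well above background for each. The list median was -0.11, with 8 of 16 differences below 0, and fusion clone 4 was the lowest of the 4 clones for all 3 Klra genes. Odorant and vomeronasal receptors had none of 494 higher and 49 lower, which is 9.92% beside the 5.81% of all autosomal genes (median -0.31). Only 115 of the 494 were well above background on all 7 arrays (median -0.64). Among all autosomal genes, the second dimmest of 5 bins by mean level had 9.71% called lower. The part of signal level in the receptor share was not tested. Olfr1410, above background on all arrays, was at 5.37 to 5.64 in the fusion clones and 7.73 to 8.63 in the female embryos (log2 difference -2.56 ± 0.26 SE, adjusted p = 0.00512), and Vmn1r53 was at 4.0 in every fusion clone, at least 13-fold lower (adjusted p = 0.00397). Zinc finger genes named Zfp had 6 of 307 higher and 26 lower (median -0.43), with Zfp148 (log2 difference 3.0), Zfp941 (log2 difference 2.26) and Zfp420 (log2 difference -3.28, 3 of 4 fusion arrays well above background). Hox genes had none of 35 higher and 2 lower, with 29 differences below 0 and a median of -1.03. Only 9 of the 35 were well above background on all 7 arrays, also with a median of -1.03. Of the lower genes, Hoxb9 was at 7.01 to 8.20 in the fusion clones and 9.22 to 10.61 in the female embryos (log2 difference -2.45 ± 0.45 SE, adjusted p = 0.0264). Protocadherins had 3 of 22 lower (median 0.02), of which Pcdh8 was at 4.0 in every fusion clone and at 7.92 to 9.76 in the female embryos, at least 26.5-fold lower (adjusted p = 0.0035). Of 34 keratin genes 1 was lower, Krt88, at least 4.66-fold (adjusted p = 0.00397; list median -0.35). Other probes of the opposite sign were found for Zfp148 (-0.51) and Zfp420 (0.51). The calls of Olfr1410, Vmn1r53, Zfp420, Pcdh8 and Krt88 held with any 1 array left out. Without 1 array the other calls ended, with adjusted p up to 0.0601 (Zfp941) to 0.0897 (Zfp148). These arrays were fusion clone 1, 2 or 3 or female embryo 3 for Klra7, fusion clone 1, 2 or 3 or female embryo 2 or 3 for Klra1 and Klra16, any fusion clone or female embryo 1 or 2 for Zfp148, fusion clone 2 or female embryo 3 for Zfp941, and fusion clone 1, 3 or 4 or female embryo 2 or 3 for Hoxb9. The calls of Klra7, Klra1, Klra16, Zfp148 and Zfp941 also ended under at least 1 other setting of the processing.

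**Figure D5:**
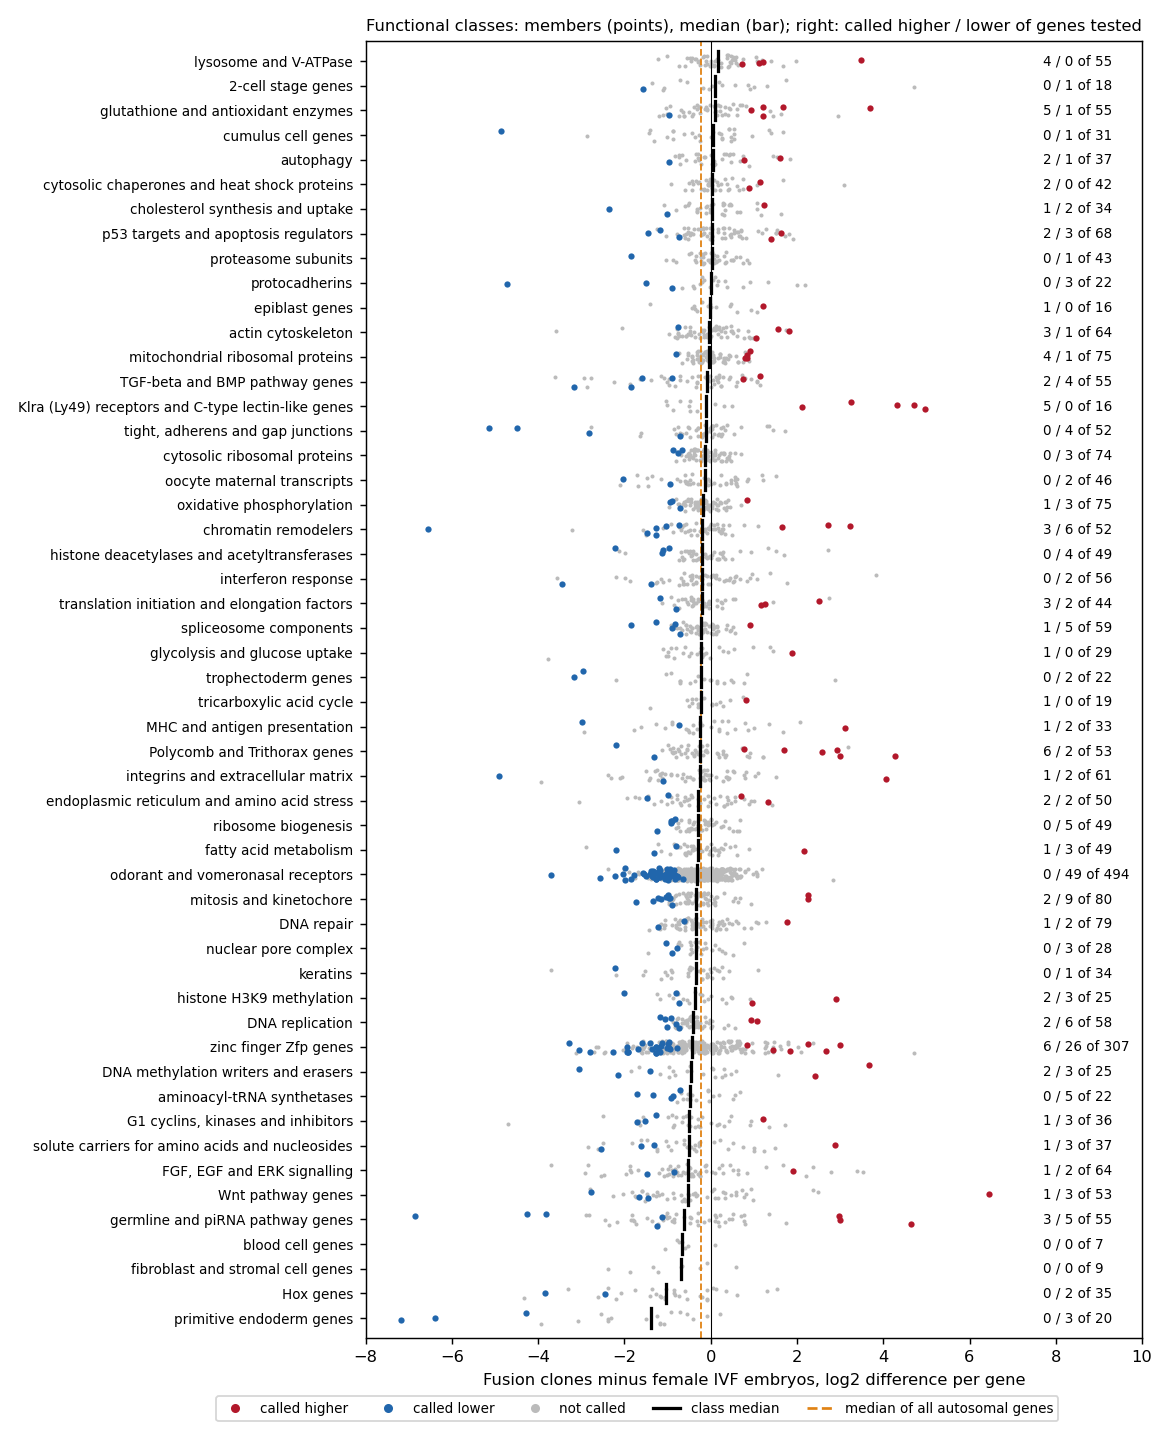
Log2 difference of each tested autosomal gene of the functional and marker lists (x axis, fusion clones minus female IVF embryos), with the list median as a black bar, the median of all autosomal genes (-0.21) as a dashed line and, at the right, the genes called higher and lower of those tested. Lists run from lysosome genes (median 0.18) at the top to Hox (-1.03) and primitive endoderm genes (-1.37) at the bottom.

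Of 111 maternal transcripts and markers of other cell types, none was called higher and 4 lower (3.6%), beside 2.54% and 5.81% of all autosomal genes; 49 of the 111 were well above background on all 7 arrays. Of 46 oocyte transcripts 2 were lower and none higher (median -0.13), among them Tle6, of the subcortical maternal complex, at 7.74 to 8.87 in the fusion clones and 9.83 to 11.29 in the female embryos (log2 difference -2.04 ± 0.44 SE, adjusted p = 0.0385). Of 18 genes of the 2-cell stage 1 was lower, Tcstv3 (log2 difference -1.57) (median 0.11). Of 31 genes of cumulus cells, the donor type, none was higher and 1 was lower: Edn2, the endothelin of the ovulating follicle, was at 4.0 to 5.53 in the fusion clones and 8.84 to 10.51 in the female embryos (log2 difference -4.86 ± 0.57 SE, adjusted p = 0.00827), with 2 of 4 fusion arrays at the floor. The cumulus list had a median log2 difference of 0.06, with 15 of 31 below 0, and of 0.41 over the 8 genes well above background on all 7 arrays. The median deviation of the list from the female mean lay between -0.23 and 0.00 in the 4 fusion clones. The cumulus products Has2 and Areg were at 4.0 in every fusion clone and in all but 1 female embryo each (6.63 and 8.22). Fibroblast and blood cell genes had no call among 9 and 7 tested (medians -0.70 and -0.66, with 8 of 9 and 6 of 7 differences below 0, beside a median of -0.21 over all autosomal genes). Col1a1 was at 5.09 ± 0.86 (SD, n = 4) in the fusion clones and 5.18 ± 0.62 (SD, n = 3) in the female embryos, and the leukocyte marker Ptprc at 4.0 in all fusion clones. Over the 52 lists, 42 medians lay below 0 and 29 below that of all autosomal genes. The calls of Tcstv3 and Edn2 held with any 1 array left out. The call of Tle6 ended without any fusion clone or any female embryo (adjusted p up to 0.0873). The calls of Tle6 and Tcstv3 also ended under at least 1 other setting of the processing.

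Levels in the injection clones, which share scanner and software with the fusion clones, are set beside those of the fusion clones. Both are measured against the same 3 female embryos, so the values are not independent. Those of Ypel2, Asz1, Meis2 and Apbb1ip have a group at the floor. Pigt differed from the female embryos by 7.04 in the fusion clones and by 5.55 in the injection clones, Gsk3b by 6.45 and 5.76, and Ypel2 by 5.62 and 4.49. Among lower genes, Dpf1 differed by -6.56 and -6.53, Asz1 by -6.85 and -6.85, Dnmt3b by -2.14 and -2.03, Zfp57 by -3.04 and -3.19, and Vars by -1.70 and -1.58. The values lay further apart for Dnmt3a (2.42 and 0.97), Meis2 (-6.08 and -3.6), Apbb1ip (-5.34 and -2.72), Eno2 (1.89 and 0.91) and Slc43a3 (2.89 and 1.69). Tested directly between both clone groups, none of the 1350 called autosomal genes reached an adjusted p below 0.05 (limma). Neither did any other probe tested, so this is not particular to the called genes. Of the 1350, 160 had an unadjusted p below 0.05 and 102 differed at least 2-fold. The same shares over all genes were not counted. The 1350 were chosen partly on the fusion clone values, so these counts are not those of an unselected set.

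The calls were spread over the genome and over signal levels. The share called higher ran from 1.38% of the genes of chromosome 14 to 3.91% of those of chromosome 3, and the share called lower from 4.53% on chromosome 6 to 6.93% on chromosome 10. By mean level, the share called higher was 0.0618% in the dimmest of 5 equal bins of genes and 3.83% in the brightest. The share called lower was greatest in the next, the second, at 9.71%, and 4.11% in the brightest. Of 543 long non-coding RNA genes 13 were higher and 20 lower, and of 15495 protein-coding genes 397 and 914. Probe choice mattered: of 675 called genes with more than 1 probe, 151 had another probe called the same way, 31 had one called the opposite way, and 493 had no other probe called. Of the 1403 probes called higher, 639 were a dimmer probe of a named gene and 341 carried no gene name. Of the 1682 called lower, these numbers were 426 and 272. Among autosomal genes not called on their brightest probe, 472 had another probe called higher and 298 had one called lower.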

How the data were processed

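Total RNA of E4.0 blastocysts was amplified, labelled with Cy3 and hybridized to 1-colour Agilent arrays. The authors deposited 1 scanner file per array with the processed intensity of each spot (background-subtracted by Agilent Feature Extraction, version 10.5.1 in the submitters' processing notes). They also deposited a table of normalized log2 values, whose exact scaling is not given in the sources used here. The file headers give a scanner and software version for the clones that differ from those for the IVF embryos. The IVF arrays carry between 6790 and 9981 spots with an intensity below 0, the clone arrays 0.

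From the processed intensities, control and outlier spots were left out, the 14 arrays were quantile-normalized, values were floored at 16, and log2 values were averaged per probe. Probes entered the test if any of the 7 arrays compared flagged them as well above background. The 4 fusion clones and 3 female IVF embryos were compared with limma 3.58.1 (R 4.3.3) and Benjamini-Hochberg adjustment over all 32458 probes, and a probe was called at an adjusted p below 0.05. Gene names and chromosomes came from RefSeq and the array annotation, which named 79.5% of the probes. Each gene was represented by its brightest probe over the 7 arrays. The median over a list of a clone's deviations from the female mean served as its score.

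Named genes were the 10 largest rises and falls among called genes measured on all 7 arrays, the 5 largest in each direction among those above background in 1 group only, and up to 3 called members of each list in each direction. Genes with predicted names only, and members of the lineage lists, were skipped in the first parts of the rule, and 1 named gene is not reported here. Spo11, Tuba3a, Pou5f1, Cdx2, Trim28, Piwil2, Ddx4, Has2, Areg, Col1a1 and Ptprc were given for context. The lists, members and tests were chosen with earlier results of these data known. The methods' test, a moderated t at an unadjusted 5% and 2-fold, was also counted. Alternatives were 75th percentile scaling, quantile normalization over the 7 arrays, normexp background correction (offset 50, on median spot signals, since mean signals were not used here for the clones), the deposited log2 values, floors of 1 and 32, other filters, 4 groups in 1 fit, a variance trend, a replicate block, gene averages and each array left out. The code was tested on simulated data.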

Additional observations from a re-analysis of the deposited data

Results flagged for a closer look

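Of 82 sets of 4 fusion clone values examined, 4 held 1 clone far from the other 3, where chance gives about 1 in 20. The median score of the cumulus cell genes was -0.23 in fusion clone 3, against -0.02 to 0.00 in the other 3. The score of the fibroblast and stromal cell genes was -0.98 in fusion clone 3 and -0.67 in each of the others. Only 8 of the 31 cumulus and 2 of the 9 fibroblast genes were well above background on all 7 arrays. Genes at the floor give clones equal scores, so the rate of 1 in 20 need not hold for these lists. The score of the solute carriers for amino acids and nucleosides was -0.31 in fusion clone 4, against -0.57 to -0.53 in the others. The log2 level of Gsk3b was 13.70 in fusion clone 1, against 13.34 to 13.40 in the others.

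The E1A spike-in spots, control RNA outside the comparisons above, had a median intensity of at least 14933 on the fusion clone arrays and at most 10.6 on the female IVF arrays. Its part in the results was not tested.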

How the results depend on the processing

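The 3085 called probes (1403 higher, 1682 lower) became 0 called, 0 higher and 0 lower with a replicate block (limma; 4869 still passed the methods' threshold of 2-fold and an unadjusted 5%). Replicate numbers do not pair these samples: between same-numbered arrays, the deviations from the group mean correlated at 0.056, 0.026 and -0.020. The block fit also left out fusion clone 4, which has no female array of its number. With probes averaged per gene, 1204 of 16777 genes were called (516 higher, 688 lower) and 2446 passed the methods' threshold, beside 5533 of 32458 probes. Requiring signal above background on all 7 arrays left 18672 probes to test, of which 3417 passed that threshold. The deposited log2 values gave 951 lower probes. Leaving out 1 array gave 1349 to 3156 called probes, 679 to 1483 higher and 664 to 1673 lower, with 1349 without fusion clone 2 and 3156 without female embryo 2; fewer samples enter each of these fits. Without fusion clones 1, 3 and 4 and female embryo 3, 1429, 1385, 1835 and 1973 were called. Of the 178 genes the rule named, printed here or not, 109 remained called on the deposited values and 115 with a floor of 1. With the replicate block 0 remained called, and with 1 array left out 77 to 117. No difference changed sign under any alternative. All were named as called genes whose groups did not overlap, so leaving out an array or changing only the fit could not turn a sign. Of the 178 genes, 82 remained called under every alternative other than the block and the left-out arrays, and 52 under every alternative other than the block. Of the list medians under alternatives, 806 moved by less than the spread between fusion clones and 130 by more. Testing all probes moved the median of all autosomal genes from -0.21 to -0.09. Values at the floor of 4 have no order, so differences among genes dimmer than this were not measurable. The other causes of these changes were not tested.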
